A study of Mus musculus with 8 samples.

Results

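The distal end of mouse chromosome 4, from position 135000000 on, held 726 of the 27878 clusters that were deposited for a comparison of DNA methylation in fixed and live muscle stem cells. A cluster is read here as 1 measured cytosine or a run of neighbouring ones that the authors treated as 1 region. Members were taken from both deposited lists, called and not called, by a start (counted from 1, mm10) at or above that position, and the other 1283 clusters of chromosome 4 served as the comparison. The stretch was selected on the position of clusters, with the called regions and the cluster-dense stretches already known from these data, so its density and its counts of called regions are descriptions. All 8 samples were sorted skeletal muscle stem cells of Tg:Pax7-nGFP/+ mice, in which a nuclear green fluorescent protein is driven by Pax7, with 1 animal per sample. The group labelled Fixated had 4 samples, treated with 0.5% paraformaldehyde, and the group labelled Live had 4 samples without it; the design text sets fixation after isolation, while the series title calls it in situ. The titles mark every fixed sample T0 and every live sample T3, so fixation and whatever that mark stands for cannot be told apart. The sources used here give neither age nor sex. The files used here hold no level per sample and no read depth, so the spread between animals is unknown, no test across animals could be run, and the labelled cell type could not be checked against its markers.

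DNA methylation at CpG sites is laid down by DNA methyltransferases and is usually low at CpG-rich promoters and high elsewhere. Reduced representation bisulfite sequencing, in its usual form, cuts DNA at CCGG with the enzyme MspI and sequences the short fragments, so it reads CpG-dense DNA best; no source used here names the enzyme. The distal end of chromosome 4 carries Pax7, the paired-box transcription factor that defines and maintains muscle stem cells, Ece1, whose product cleaves big endothelin into the active peptide, and an array of Pramel, zinc finger and pseudogene copies. Zinc finger genes of such arrays mostly encode DNA-binding repressors that act on transposable elements, and the arrays grew by repeated duplication.

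The sequences shown for the called region at Ece1, the clusters at Pax7 and the gene-rich block are promoter windows of RefSeq. The build is GRCm38.p6, the assembly that mm10 names. The windows run from 250 bases before a listed start site to 50 bases from it on. They are shown 5′ to 3′ in the direction of transcription, with each CG in capitals. The first listed start of Ece1 (chr4:137861987-137862286, plus strand) is CpG-rich, and the internal start (chr4:137920543-137920842, plus strand) is the one that the called region overlaps. The Pax7 window (chr4:139832919-139833218, minus strand) is largely covered by a cluster. The Gm13212 window (chr4:145584950-145585249, plus strand) belongs to the gene assigned to the called region of the block and does not overlap that region.
Ece1 first start: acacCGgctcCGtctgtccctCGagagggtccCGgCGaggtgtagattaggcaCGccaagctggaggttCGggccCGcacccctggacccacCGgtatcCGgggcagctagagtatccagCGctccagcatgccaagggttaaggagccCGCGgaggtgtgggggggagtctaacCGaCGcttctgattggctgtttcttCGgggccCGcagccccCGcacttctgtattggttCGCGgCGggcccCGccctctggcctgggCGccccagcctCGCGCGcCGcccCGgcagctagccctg
Ece1 internal start: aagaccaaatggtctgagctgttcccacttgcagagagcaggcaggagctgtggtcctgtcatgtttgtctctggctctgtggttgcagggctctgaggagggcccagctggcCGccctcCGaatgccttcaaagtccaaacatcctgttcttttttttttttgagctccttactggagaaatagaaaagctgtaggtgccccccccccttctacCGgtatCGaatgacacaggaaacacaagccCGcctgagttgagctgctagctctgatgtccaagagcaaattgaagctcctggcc
Pax7: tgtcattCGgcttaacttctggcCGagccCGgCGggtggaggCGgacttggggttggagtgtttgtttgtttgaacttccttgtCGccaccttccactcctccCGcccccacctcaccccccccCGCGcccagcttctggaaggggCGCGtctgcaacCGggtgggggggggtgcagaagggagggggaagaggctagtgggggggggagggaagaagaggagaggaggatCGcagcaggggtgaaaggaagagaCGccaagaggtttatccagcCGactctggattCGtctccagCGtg
Gm13212: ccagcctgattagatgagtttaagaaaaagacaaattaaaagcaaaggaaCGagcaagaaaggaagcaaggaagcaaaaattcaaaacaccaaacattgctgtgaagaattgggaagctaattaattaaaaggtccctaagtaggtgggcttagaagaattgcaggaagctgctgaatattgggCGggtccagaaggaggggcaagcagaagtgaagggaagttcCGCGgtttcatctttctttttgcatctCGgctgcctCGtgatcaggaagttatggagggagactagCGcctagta

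The windows differed widely in CpG content. The first Ece1 window held 28 CG and 5 CCGG sites, and its GC content was 69.3%. The internal Ece1 window held 5 CG and 1 CCGG site at a GC content of 53%. The Pax7 window held 17 CG and 2 CCGG sites, and the Gm13212 window held 7 CG and 0 CCGG sites. The motifs searched were CG and CCGG, which read the same on both strands; every CCGG contains a CG. Of all 32851 RefSeq mouse promoter windows of the same length, 94.6% held at least 1 CG and 52.8% at least 1 CCGG.

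Clusters were packed more densely here than along the rest of the chromosome. The 726 clusters made up 36.1% of the 2009 on chromosome 4 (exact Clopper-Pearson 95% interval 34.0 to 38.3%, counting error only) on 13.9% of its span, taken from the first to the last cluster. That is 34.2 clusters per Mb against 9.78 per Mb in the rest, a ratio of 3.49. The covered length was 4219 bp per Mb against 1037 bp per Mb. Annotated genes were also denser, with 15.7 protein-coding RefSeq genes per Mb against 7.31, so that the ratio of cluster counts was 1.63 per protein-coding gene (2.18 against 1.34) and 1.92 per RefSeq gene of any type in the same spans. Neighbouring clusters are not independent, and no test of the density was run.

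The density had no step at the boundary. The last cluster below it (134988962 to 134989142, 181 bp) and the first one above it (135009469 to 135009605, 137 bp) both lay outside genes, and the bins of 1 Mb on either side of the boundary held 54 clusters each. Over the 21 full bins of the distal stretch the count ran from 5 to 62 with a median of 33, and over the 132 bins of the rest from 0 to 54 with a median of 5. Of the 10 densest bins on the chromosome, 7 were distal. The densest bin, from 154 to 155 Mb, held 62 clusters and includes Prdm16, a transcription factor gene of brown fat, and Trp73, a p53 family gene. Next among the distal bins came the first one above the boundary, with the transcription factor gene Runx3, and the one from 139 to 140 Mb, with Pax7, at 54 clusters each. The emptiest 3 full bins of the stretch, with 5, 5 and 8 clusters, all lay in the gene and pseudogene block, and the last and partial bin, from 156 Mb on, held 7.

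**Figure D1:**
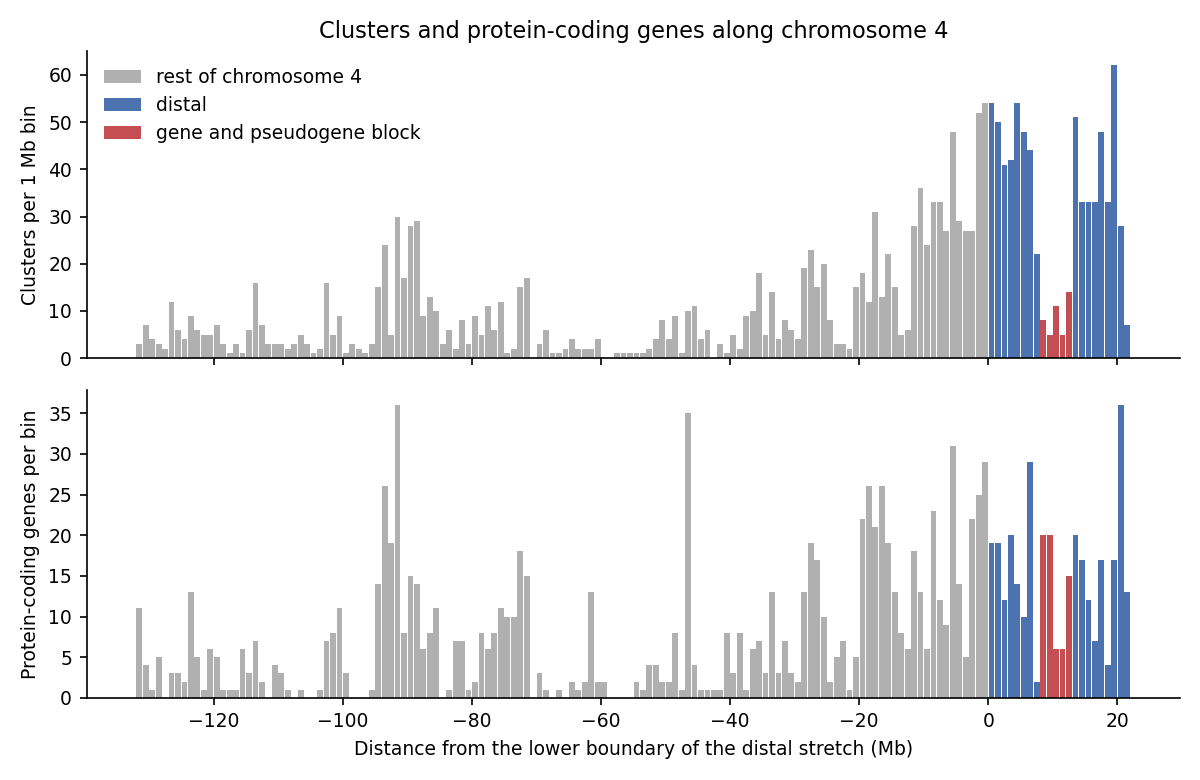
Clusters per bin of 1 Mb (top) and protein-coding RefSeq genes starting in each bin (bottom) along chromosome 4, by distance in Mb from the lower boundary of the distal stretch, with the rest of the chromosome in grey, the distal stretch in blue and the gene and pseudogene block in red. The 5 red bins hold 5 to 14 clusters, while the other 16 full distal bins hold 22 to 62.

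Cluster number followed gene number less closely in the distal stretch than in the rest, as a description over bins that share the chromosome and the libraries. Across the 132 bins of the rest, clusters and protein-coding gene starts per bin had a Pearson r of 0.73 and a Spearman coefficient of 0.73. Across the 21 distal bins the values were 0.22 and 0.21, and across the 16 full distal bins outside the block they were 0.22 and 0.32. The bin just below the block had 22 clusters with 2 protein-coding gene starts, and the bin from 155 to 156 Mb had 28 clusters with 36.

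**Figure D2:**
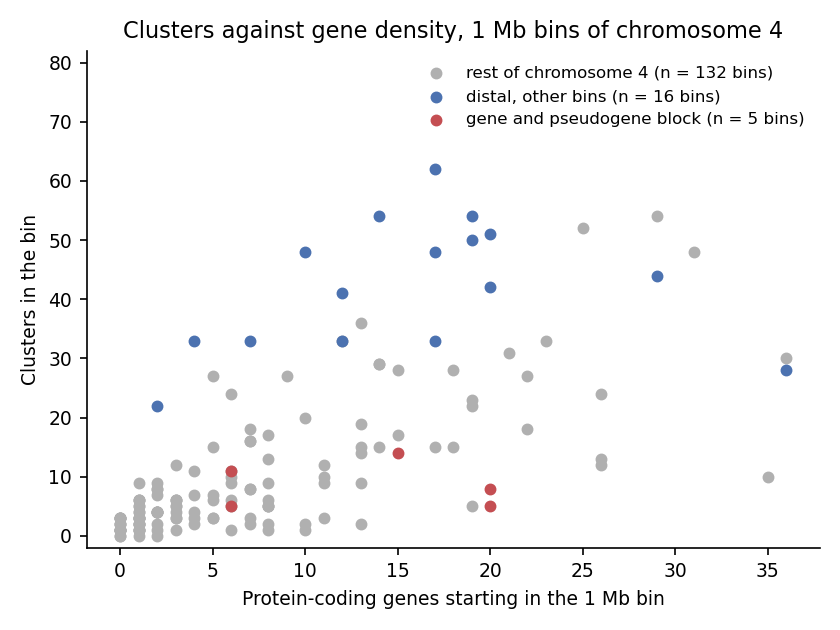
Clusters against protein-coding gene starts in each full bin of 1 Mb of chromosome 4. Blue points (16 distal bins) lie mostly above grey points (132 bins of the rest) with the same number of genes, and the 5 red points of the block lie at 14 clusters or fewer.

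The distal clusters were slightly longer than those of the rest of chromosome 4, but close to the whole series, whose median length was 89 bp. Their lengths ran from 1 bp to 1500 bp with a median of 92 bp (order-statistic 95% interval 85 to 97 bp, for counting error only) and quartiles of 61.3 and 152 bp, against a median of 79 bp (76 to 84 bp) in the rest. A single position made up 52 distal clusters (7.16%, exact interval 5.40 to 9.29%) and 134 of the rest (10.4%, 8.82 to 12.2%). At least 400 bp long were 18 distal clusters (2.48%, exact interval 1.48 to 3.89%) and 25 of the rest (1.95%, 1.26 to 2.86%). The longest, 1500 bp, overlapped Icmt, which encodes the methyltransferase that finishes prenylated proteins. It was followed by 1171 bp in Pax7, 1156 bp in Prdm16, 1069 bp in Phf13, which encodes a chromatin-binding PHD finger protein, and 877 bp in Runx3. The median gap between neighbours was 14504 bp, against 31078 bp in the rest, while the share of gaps of at most 1000 bp was 10.9% in the distal stretch and 11.1% in the rest.

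Relative to genes, distal clusters lay more often inside gene bodies and less often at gene ends than those of the rest, by their shares alone. Gene ends, taken as 3000 bp around the first and last base of a RefSeq gene, held 39.9% of the distal clusters (exact interval 36.4 to 43.6%) and 51.4% of the others (48.7 to 54.2%). Inside a gene and farther from any gene end lay 41.2% (37.6 to 44.9%) and 27.4% (25.01 to 29.97%). Outside genes and these windows lay 18.9% (16.1 to 21.9%) and 21.1% (18.9 to 23.5%). The intervals of the last share overlapped and those of the first pair of shares did not, but they cover counting error only. A few genes carried many of the clusters, since the 10 genes with most clusters within 3000 bp held 153 of the 726 (21.1%, exact interval 18.2 to 24.2%).

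Of the 335 protein-coding genes that start in the distal stretch, 137 had no cluster within 3000 bp, 71 had 1, 57 had 2 and 70 had 3 or more. Camta1, a calmodulin-binding transcription activator gene of 802 kb, led with 26. Prdm16 had 22 over 321 kb, Pax7 had 20 over 96.5 kb and Ephb2, an ephrin receptor gene, had 19 over 189 kb. Igsf21, a synaptic adhesion gene, and Casz1, a zinc finger transcription factor gene of heart and vessel development, had 17 each. The noncoding RNA gene Gm46873, which overlaps the 5′ end of Pax7, had 10, some of which also count at Pax7, and Ajap1, an adherens junction gene, had 10. Runx3 had 9, and Ece1 had 8; Pik3cd, a leukocyte PI3-kinase subunit gene, also had 8 and was not counted among the 10, since ties were taken in order of position.

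These genes differ widely in length, so the count inside the gene per length is given as well. Among the 60 distal protein-coding genes of at least 50 kb, the median was 3.27 clusters per 100 kb, and 8 genes had none. Pax7 stood first with 19.7 per 100 kb, before Runx3 with 15.7, Pik3cd with 13.1 and Casz1 with 11.3. Ece1 ranked 10 of the 60 with 7.77 per 100 kb. Prdm16 had 6.54 per 100 kb and Camta1 3.12 per 100 kb, close to the median.

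**Figure D3:**
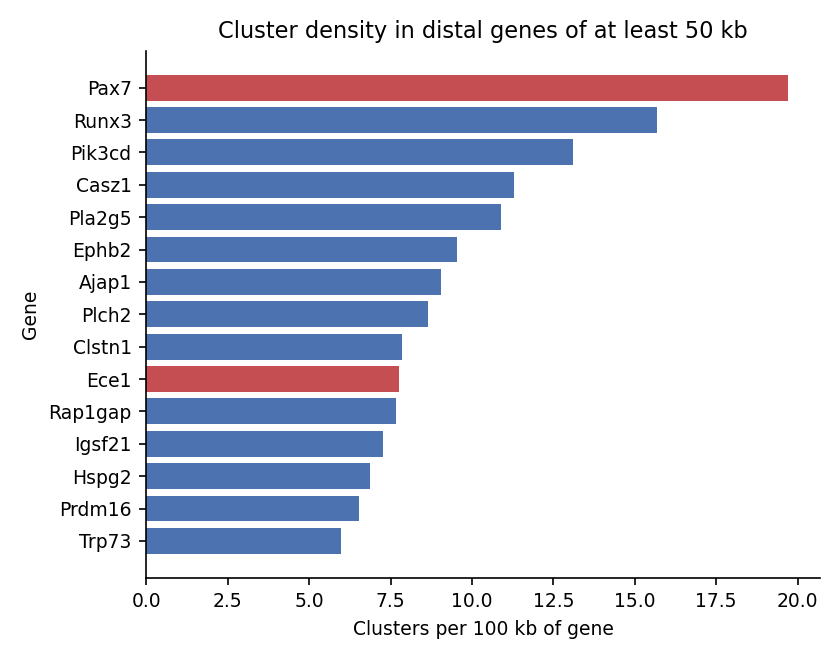
Clusters per 100 kb inside the 15 densest of the 60 distal protein-coding genes of at least 50 kb, with Pax7 and Ece1 in red. Pax7 has 19.7 per 100 kb and Ece1 7.77.

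At Pax7 (139737059 to 139833530, minus strand) the clusters gathered at the 5′ end. Within 3000 bp of the gene lay 20 clusters, 60 to 1171 bp long with a median of 184 bp, covering 5251 bp. The authors called 0 of these 20, where 0.0753% of all 27878 clusters were called. From 3 kb before the listed start site (139832968) to 20 kb after it lay 12 of them, with 4104 bp of the covered length and 7 of the 9 clusters of at least 200 bp. The cluster at the start (139832987 to 139833322, 336 bp) covered 232 of the 300 bases of the promoter window shown above, with 12 of its 17 CG and both CCGG sites. The next 2 downstream, of 758 and 303 bp, and the longest, of 1171 bp and about 11.1 kb downstream, lay inside the gene. All samples carry a Pax7 transgene, and whether reads from it were counted at the Pax7 gene was not tested. Another 7 clusters of the gene body lay more than 20 kb downstream and were 60 to 321 bp long.

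Around Pax7 the neighbouring genes held fewer clusters. With 50 kb on both sides the count was 32, and with 500 kb on both sides it was 64, or 58.4 per Mb. On the lower side, Tas1r2, a taste receptor gene, had 1 cluster within 3000 bp, the proline catabolism gene Aldh4a1 had 0 and the filament gene Iffo2 had 5. On the higher side Klhdc7a had 2, Igsf21 had 17 and Arhgef10l had 5. None of the clusters at these 6 genes was called, where 0.0753% of all clusters of the series were called. The end of Gm46873 that lies away from Pax7 held 4 short clusters of 29 to 115 bp.

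**Figure D4:**
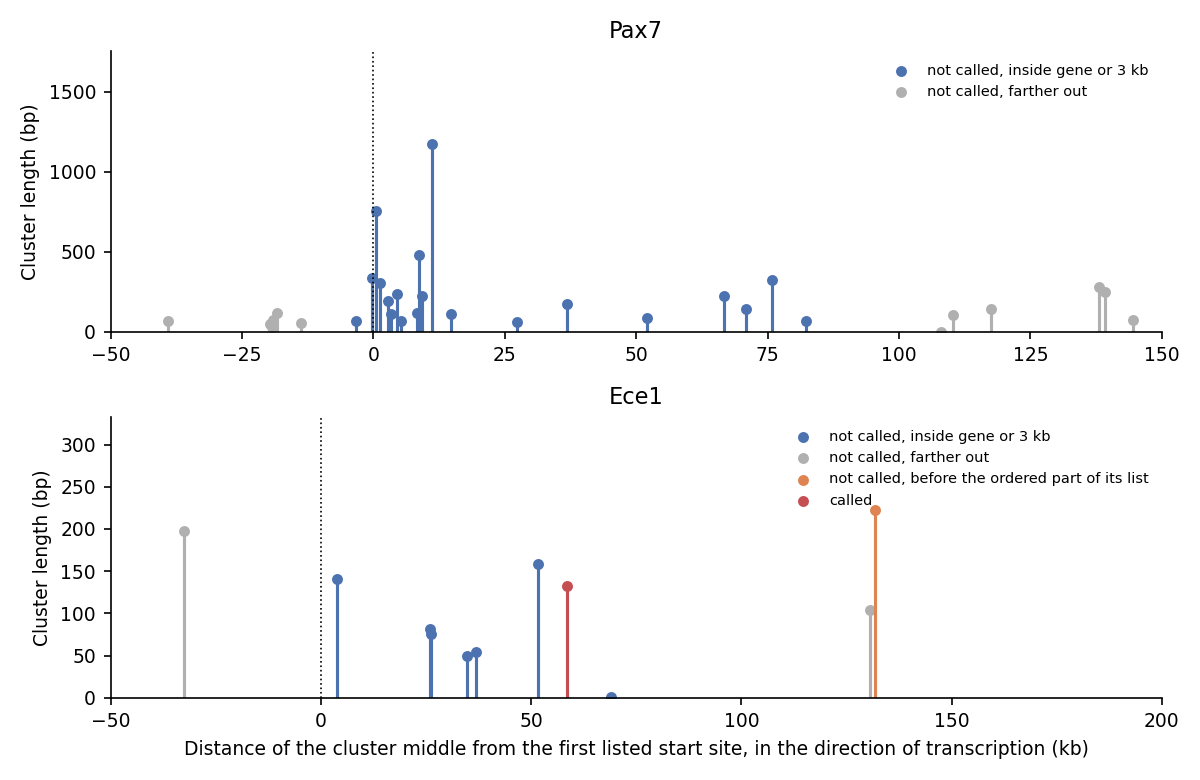
Length in bp of each cluster within 50 kb of Pax7 (top) and Ece1 (bottom) against the distance of its middle from the first listed start site, in kb in the direction of transcription; the dotted line marks the start, clusters over 3 kb from the gene are grey, and the orange one stands before the ordered part of its list. At Pax7 the clusters of 336, 758 and 1171 bp lie at or soon after the start, and at Ece1 the called cluster of 132 bp (red) lies 58.6 kb downstream.

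The calls were few. Over the whole series the authors called 21 of 27878 clusters, 0.0753%, and in the distal stretch 2 of 726, at Ece1 and in the block. At Ece1 the authors' deposited table gives a median methylation difference of -21.7 percentage points with p = 1.41e-06; no source used here says whether this p was adjusted or which group was subtracted from which. By absolute difference in the authors' deposited table this region ranked 10 of the 21. No spread can be given for it.

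The called Ece1 cluster (137920758 to 137920889, 132 bp) lay at an internal start and not at the CpG-rich ones. It began 35 bp before the listed start at 137920793, and 85 of its bases fell inside the promoter window printed above as the internal start; the other 47 bp lay beyond it. Those 85 bases, from CGgtatCG on, held 3 CG, and the first of them is part of the only CCGG of the window. The other listed Ece1 starts, at 137862237, 137862280 and 137913558, had windows with 28, 26 and 21 CG, and none of these windows overlapped a cluster. The nearest was a cluster of 158 bp (137913825 to 137913982) that began 217 bp after the end of the third window and was not called. No expression was measured in the files used here.

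Ece1 (137862237 to 137965229, plus strand) had 8 clusters in all, 1 to 158 bp long with a median of 78.5 bp, covering 693 bp. Only 1 of the 8 lay within 20 kb of the first start, in contrast to 12 of 20 at Pax7. None of the 8 reached 200 bp. Of its neighbours, Alpl, the tissue-nonspecific alkaline phosphatase gene, had 3 clusters within 3000 bp, the Rap1 regulator gene Rap1gap had 6, the ubiquitin protease gene Usp48 had 0, the translation initiation gene Eif4g3 had 4, the heterochromatin gene Hp1bp3 had 2 and Sh2d5 had 2. The called cluster had 6 others within 50 kb, none of them called, where 0.0753% of all clusters of the series were called.

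In the gene and pseudogene block (143000000 to 147999999), clusters were few for the number of genes and beside the neighbouring distal stretches. Its 5 Mb held 43 clusters, 8.6 per Mb, and 67 protein-coding genes, or 0.642 clusters per gene. The rest of the chromosome held 9.78 clusters per Mb, close to the block, and 1.34 per protein-coding gene. The 5 Mb before the block held 210 clusters and 75 protein-coding genes, 2.8 per gene, and the 5 Mb after it 198 clusters and 73 genes, 2.71 per gene. A cluster lay within 3000 bp of 10 of the 67 block genes (14.9%, exact interval 7.40 to 25.7%), of 52 of 75 before it (69.3%, 57.6 to 79.5%) and of 55 of 73 after it (75.3%, 63.9 to 84.7%). Elsewhere on chromosome 4 such bins also occur: of 20 bins of the rest with at least 15 protein-coding gene starts, 4 held under 15 clusters, and the bin from 88 to 89 Mb had 10 clusters with 35 gene starts. Among the 12 such distal bins, 3 held under 15 clusters, all in the block. Reads from near-identical copies may match several places; no source used here says how the authors placed them, and the part of this in the counts was not tested.

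The lower part of the block is made of Pramel, Oog and Aadacl genes, of which the first 2 families are expressed in germ cells and early embryos and the third resembles arylacetamide deacetylase. Of 24 genes with a Pramel or Oog symbol, 1, Pramel12, had a cluster, of 19 bp, and of 7 Aadacl genes none had. The longest stretch without a cluster in the distal part, 815856 bp from 143412700 to 144228557, spans 20 protein-coding genes, 16 of them named Pramel or Oog, and 11 pseudogenes. Below and above these families the clusters lay mostly at other protein-coding genes. The histone methyltransferase gene Prdm2 had 3 within 3000 bp, Lrrc38 had 2, the retinol pathway gene Dhrs3 had 2, Vps13d had 5 and the receptor gene Tnfrsf8 had 2. Dhrs3 lies within the bounds of Vps13d, and its 2 clusters, of 5 bp and 1 bp, are among the 5 of Vps13d.

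The upper part of the block holds the zinc finger genes. Of 17 protein-coding genes with a zinc finger symbol, 3 had a cluster within 3000 bp, which were Zfp978 with 7, Zfp993 with 2 and Zfp982 with 2. These 3 span long stretches that also contain pseudogenes, and 14 others, such as Zfp600, Zfp980 and Rex2, had 0. In the 16 RefSeq promoter windows of 13 of these genes the CG count ran from 1 to 16 with a median of 4.5, 3 windows held a CCGG and 0 overlapped a cluster. The 28 windows of Pramel, Oog and Aadacl genes held 0 to 20 CG with a median of 1.5, 2 had a CCGG and 0 overlapped a cluster. Over the block, 26.6% of 79 windows had a CCGG, against 92 windows (62.6%) in the 5 Mb before it and 84 windows (67.2%) in the 5 Mb after it.

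Clusters of the block overlapped pseudogenes in a larger share than the others. Of 43 clusters, 16 (37.2%, exact interval 23.0 to 53.3%) overlapped a pseudogene, against 8 of the 683 other distal clusters (1.17%, 0.507 to 2.29%) and 9 of the 1283 in the rest of the chromosome (0.701%, 0.321 to 1.33%). The block has 79 annotated pseudogenes, against 10 in the 5 Mb before it and 13 in the 5 Mb after it. All 16 lay above Tnfrsf8, where 26 of the 43 clusters lie, and 18 of these 26 were in a pseudogene or at most 300 bp from one. Some of these annotations are long, such as Vmn2r-ps15 (74243 bp) and Vmn2r-ps17 (140140 bp). The share of the sequence in or near pseudogenes was not determined, so the 37.2% and the 18 of 26 have no background. Of the 16, 10 lay 100 to 300 bp inside the nearest end of the shortest pseudogene they overlapped. That distance was 118 bp in Gm13034, 122 bp in Gm13231, 133 bp in Gm13158, 142 bp in Gm13136, 192 bp in Gm13146, 213 bp in Gm20760 and 277 bp in Gm13135. Another 3 lay deeper, 353 bp inside Gm13161, 1570 bp inside Vmn2r-ps17 and 30716 bp inside Vmn2r-ps15. The remaining 3 reached past an end, by 133 bp at Smarca5-ps, by 463 bp at Gm13142 and by 53 bp at Gm13135. The annotation table used here gives no strand for pseudogenes, so which end this is was not determined. The range of 100 to 300 bp was set after the values were seen. Short pseudogenes such as Gm13223 (797 bp) and Gm13158 (1050 bp) leave few positions far from an end. Gm13231 (3708 bp), Gm13135 (3713 bp) and Gm13136 (3720 bp) leave many. The share for clusters placed at random was not determined, so the 10 of 16 have no background and show no shared position.

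The called cluster of the block is among the 16 that overlapped a pseudogene and the 10 that lay 100 to 300 bp inside its nearest end. It lay at 145632623 to 145632692 (70 bp), 119 bp inside the nearest end of the pseudogene Gm13234, which is 844 bp long. The authors' deposited table assigns it to Gm13212 as distal intergenic, 15505 bp from a transcript start, and it lay 7280 bp from the RefSeq bounds of that gene. Its median difference in the authors' deposited table was 30.2 percentage points, with p = 3.86e-06, the third by absolute size among the 21 and of the opposite sign to Ece1. The clusters in Gm13231, 8387 bp away and 74 bp long, and in the other pseudogenes named above were not called. Of all clusters of the series, 0.0753% were called. Gm13212 itself had 0 clusters within 3000 bp. The start site of its window shown above, 145585200, lies farther from the called cluster than the 15505 bp given for a transcript start.

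Promoter windows held a cluster more often the more CCGG sites they had. In the distal stretch 43 of 543 windows (7.92%, exact interval 5.79 to 10.5%) overlapped a cluster, and in the rest of the chromosome 128 of 1510 (8.48%, 7.12 to 9.997%). Windows of 1 gene can overlap each other. By CCGG count, 0 of 208 distal windows without the site held a cluster, which allows a share of up to 1.44% by 3 counts of the total, with an exact upper bound of 1.76%. Of those with 1 to 2 sites 5.18% of 193 held one, of those with 3 to 4 sites 16.9% of 89, and of those with 5 or more 34.0% of 53. In the rest the 4 shares were 0.153, 8.20, 21.5 and 28.1%. The first Ece1 window, with its 5 CCGG sites, was thus in the class with the highest share and held no cluster, while the internal window with 1 site held one. The median CG count also rose over the 4 distal CCGG classes, from 4 to 9, 26 and 32, so the 2 measures were not separated. In windows with 0 to 5, 6 to 10, 11 to 20 and 21 or more CG, the distal shares were 1.52, 7.62, 4.41 and 16.8%. In the rest they were 0.317, 6.67, 11.2 and 20.4%.

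**Figure D5:**
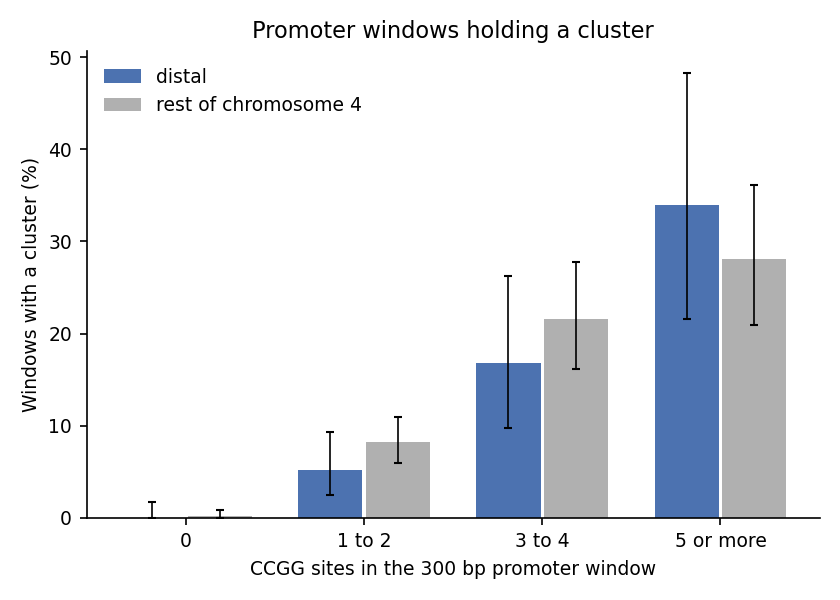
Share of promoter windows of 300 bases that overlap a cluster, in percent, by number of CCGG sites, for the distal stretch (blue) and the rest of chromosome 4 (grey), with exact 95% intervals. The distal share goes from 0 of 208 windows without the site to 34.0% of 53 windows with 5 or more.

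The ends of the clusters inside promoter windows fell on CpG sites, which a run of measured CpG cytosines has by definition. Of the 24 cluster starts and 26 cluster ends that lie inside distal promoter windows, all 50 were at a base of a CG, and 23 (46%) were at the CG of a CCGG. The share of all CG of these windows that belong to a CCGG was not determined, so the 46% has no background. Ends outside these windows were not examined. The called Ece1 cluster and the cluster at the Pax7 start each had an edge at a CG in the sequences shown above.

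Of all distal protein-coding genes within the span, 198 of 333 (59.5%, exact interval 54.0 to 64.8%) had a cluster, and the counts of the pathway genes are read beside that share. All 4 Notch genes had clusters, 9 in all, with 3 at Hes3, 2 each at Hes2 and Hes5, all from a family of repressors of which Hes5 is a direct Notch target, and 2 at Mib2, a ubiquitin ligase that activates Notch ligands. The Wnt ligand gene Wnt4 had 2 and the signal transducer gene Dvl1 had 1. Of the genes of TGF-beta and BMP response, Id3, a BMP target, had 1, the corepressor gene Ski had 3 and Prdm16 had 22. The basement membrane genes Hspg2 and Agrn, encoding perlecan and agrin, had 7 and 1, and the microfibril gene Mfap2 had 1. The growth kinase genes Mtor and Pik3cd had 3 and 8.

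Among gene families, shares of members with a cluster lay on both sides of that value. Of 7 TNF receptor genes, 3 had a cluster, Tnfrsf8 with 2 and Tnfrsf18 and Tnfrsf25 with 1 each. Of 6 secreted phospholipase genes, 4 had one, led by Pla2g5 with 7. These 4 include Pla2g2a, annotated as a transcribed pseudogene within the bounds of Pla2g5, whose 2 clusters are among those 7. The share above covers protein-coding genes only. Of 5 peptidylarginine deiminase genes, which convert arginine to citrulline, 4 had one, led by Padi4 with 5. The natriuretic peptide genes Nppa and Nppb had 0, as did the cell cycle gene E2f2, while Trp73 had 7. Over all 36 genes of these 10 lists, 26 had a cluster, with 91 clusters and 0 called, where 0.0753% of all clusters were called.

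Of 16 RefSeq miRNA genes in the stretch, 3 had a cluster within 3000 bp, which were Mir2139 with 2 and Mir7023 and Mir34a with 1 each. Mature forms of these 3 from RefSeq (GRCm38.p6; chr4:150068473-150068494 on the plus strand, chr4:139967531-139967554 and chr4:149655504-149655525 on the minus strand) are shown with their seed, bases 2 to 8, in capitals; miR-34a is a target of p53 that restrains the cell cycle. The 3 seeds differ.
mmu-miR-34a-5p: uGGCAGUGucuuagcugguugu
mmu-miR-2139: aGCUGCGCugcuccugguaacugc
mmu-miR-7023-3p: uCACCCUGucugcgccccucag
The family of Mir200a, Mir200b and Mir429 near the end of the chromosome, which represses genes of the mesenchymal state, had 0 clusters. Mir2139 lies within the bounds of Klhdc7a and Mir7023 within those of Pik3cd, so their clusters are also counted at these genes. No share over other short genes was determined, so 3 of 16 and the 0 of this family have no background.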

How the data were processed

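Reduced representation bisulfite libraries of 8 samples were made from 95 ng of DNA each, per the labels' protocols. Trim Galore 0.4 for reads, Bismark 0.14.4 and, of later steps, ChIPseeker 1.12.1 are named with mm10 in the submitters' processing notes. No source used here names the region caller or its filters. The deposited files are a table of called regions, with p-values, a signed median difference as a fraction (printed in percentage points) and distances, and 2 lists of cluster positions, with no fraction or count per sample. A further 2 columns of group medians carry names that match no label and were not used. Depth is unknown.

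Positions were turned to counting from 1, both lists were pooled, and clusters were set against RefSeq genes of GRCm38.p6, with windows of 3000 bp on both sides and overlaps of at least 1 bp. Shares carry exact Clopper-Pearson 95% intervals, and a count of 0 allows 3 of the total; both cover counting error only. Clusters on 1 chromosome are not independent, so no test was run. Interval counting was checked on simulated data. The members, gene lists, windows and alternatives were chosen with earlier results of these data known. Genes are named where they host or are assigned a called region, are among the 10 with most clusters, lie next to Pax7 or Ece1, are in a list or have a cluster in the block; the pseudogene positions and the genes per length were chosen after the values were seen. Intervals came from scipy 1.17.1, tables from pandas 2.3.3 with numpy 2.4.6, and plots from matplotlib 3.10.9, all under Python 3.11.15.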

Additional observations from a re-analysis of the deposited data

How the results depend on the processing

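Of 30 alternatives, 1 of them (leaving out the gene and pseudogene block) chosen after seeing the data, 20 left their value close to the one reported and none turned the order of the distal stretch and the rest in density, covered length, median length or the shares near and outside genes. For counts and ratios, close covered a wide range, while for medians and shares it meant inside the reported interval. With the boundary at 130 Mb the distal stretch held 915 clusters, and the density ratio was 4.02. With it at 140 Mb the stretch held 485 clusters, and the ratio was 2.67. Counting per RefSeq gene of the whole chromosome, genes beyond the outermost clusters included, took the density ratio from 3.49 to 1.99, and leaving out the block took it to 4.30. The median length became 98 bp (87 bp in the rest) with neighbours within 1000 bp merged and 110.5 bp (101 bp) without clusters under 50 bp. With the boundary at 140 Mb the median lengths were nearer to each other, 87 bp and 82 bp. The share near a gene end became 28.2% (34.9% in the rest) with 1000 bp windows and 29.2% (41.6%) with protein-coding genes only, which took the share outside genes and windows to 26.7% (29.9%). Called clusters numbered 1, then fewer than in the rest, with the boundary at 140 Mb, since Ece1 lies below it, and 9 with the clusters before the ordered part of the other list included. Clusters at Pax7 numbered 32 with 50 kb on both sides, and the block held 21 when cut to 144000000 to 146999999. No paired analysis was possible because each deposited cluster stands for all samples together, so that leaving out a replicate was not possible either. Unknown depth limits what clusters that were not called can show.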

Other observations

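The list of clusters that were not called opens with 73 clusters that stand before its chromosome blocks restart, and 7 of the 14 on chromosome 4 were distal. They lay in Ephb2 (136724868 to 136724988), in Eif4g3 (137994028 to 137994249), 10367 bp from Ubr4 (139499900 to 139499943), in Espn (152125634 to 152125675), a gene of actin bundles, in Gpr153 (152279046 to 152279098), in Chd5 (152338988 to 152339332), a chromatin remodeller gene, and in Prdm16 (154544125 to 154544171). The 3 in Espn, Gpr153 and Chd5 fell in the same bin of 1 Mb. As a share, 0.964% of distal clusters (exact interval 0.389 to 1.98%), 0.546% of those in the rest (0.220 to 1.121%) and 0.262% of the whole series stood in that part. The stretch was chosen with these clusters known, no source used here says what the place in the list stands for, and none of the 7 lay in the block.

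The authors' deposited table numbers its clusters per chromosome, and the numbers run ahead of the places that the regions take when the deposited clusters are ordered by position. Ece1 has number 2467 and place 1425, and Gm13212 number 2809 and place 1658. Between Ece1 and Gm13212 the numbers advance by 342 and the deposited clusters by 233 (68.1%). On all 6 chromosomes with at least 2 called regions the numbers rise with position.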
